A study of Mus musculus with 6 samples.

Results

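Messenger RNA of 10 marker genes of T cells and natural killer (NK) cells was followed in bulk mouse liver: Cd3d, Cd3e, Cd3g, Cd4, Cd8a, Nkg7, Gzma, Gzmb, Klrb1c and Il2rb. The genes were chosen by name, as rows of the deposited count table, and they make up 10 of its 35977 genes. All 10 passed the filter on low counts that left 14374 genes for testing. The livers came from mice injected with adeno-associated virus serotype 9 (AAV9) carrying Cre recombinase under the Tnnt2 promoter. Tnnt2 encodes cardiac troponin T, and its promoter is used to drive expression in heart muscle cells. The Cre group (replicates 10, 11 and 12) received AAV9-Tnnt2-Cre, and the Cre-miR122 group (replicates 1, 2 and 4) AAV9-Tnnt2-Cre-miR122, whose cassette adds miR-122 target sites; hepatocytes are rich in this microRNA. Each group had 3 libraries, both groups carried the Tnnt2-Cre cassette, and no group without vector was analysed here. The labels give no strain, age, sex, dose or time after injection, and leave unstated whether each library is a different animal, so p-values reflect only how these samples vary, part of which may be technical.

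T cells recognise peptide on MHC molecules through the T cell receptor, whose signal is carried into the cell by the CD3 chains and tuned by the coreceptors CD4 and CD8. NK cells carry no such receptor and read a balance of activating and inhibitory receptors, many of the C-type lectin family. Both kill target cells by releasing granules with perforin and granzymes, and both respond to interleukin 2 and interleukin 15 through a shared receptor chain. The liver holds resident NK cells, the related type 1 innate lymphoid cells, NKT cells and T cells in its sinusoids, among a large majority of RNA from hepatocytes. In bulk tissue, fewer cells of a type and less RNA per cell cannot be told apart.

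Libraries held 20340994 to 20817837 counts. Values below are counts, CPM (counts scaled to library size, with TMM factors), or, for levels compared between genes, RPKM (CPM divided by summed exon length in kilobases). Intervals of counts are exact 95% Poisson intervals, which cover counting error only. The Cre transcript of the vector had 61, 50 and 37 counts with Cre against 12, 16 and 10 with Cre-miR122, with no overlap. Cre replicate 10 stood apart in sex-linked genes, with 5 counts of Xist and 1676 of the Y-linked gene Ddx3y, whereas Xist ran from 15778 to 22413 counts and Ddx3y from 0 to 1 in the other 5 libraries. The liver label was checked against 7 hepatocyte markers, which summed to 123593 to 148898 CPM per library. The 10 T and NK markers summed to 14.6 to 21.7 CPM per library, from 295 counts in Cre replicate 10 to 466 in Cre replicate 11.

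All 10 markers were detected in every library, at low levels. By mean RPKM over the 6 libraries the order was Gzma (3.01 ± 0.930, SD), Gzmb (2.36 ± 0.749), Cd3g (1.46 ± 0.352), Nkg7 (1.35 ± 0.284) and Il2rb (0.998 ± 0.163). After these came Klrb1c (0.424 ± 0.0874), Cd3e (0.358 ± 0.0702), Cd8a (0.314 ± 0.0570), Cd3d (0.280 ± 0.0918) and Cd4 (0.254 ± 0.0481). The ranges of neighbours in this order overlapped at every step but 1. Il2rb, at 0.854 RPKM or more, lay above Klrb1c, at 0.566 RPKM or less, in all 6 libraries. Within each of the 6 libraries, Gzmb also lay above Cd3g and Nkg7 above Il2rb, though their ranges over the libraries overlapped. The granzyme transcript Gzma lay above 45.0% of tested genes and Cd4 above 6.88%. The summed exon length includes every annotated exon, so genes with several transcript forms can read low per length.

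**Figure D1:**
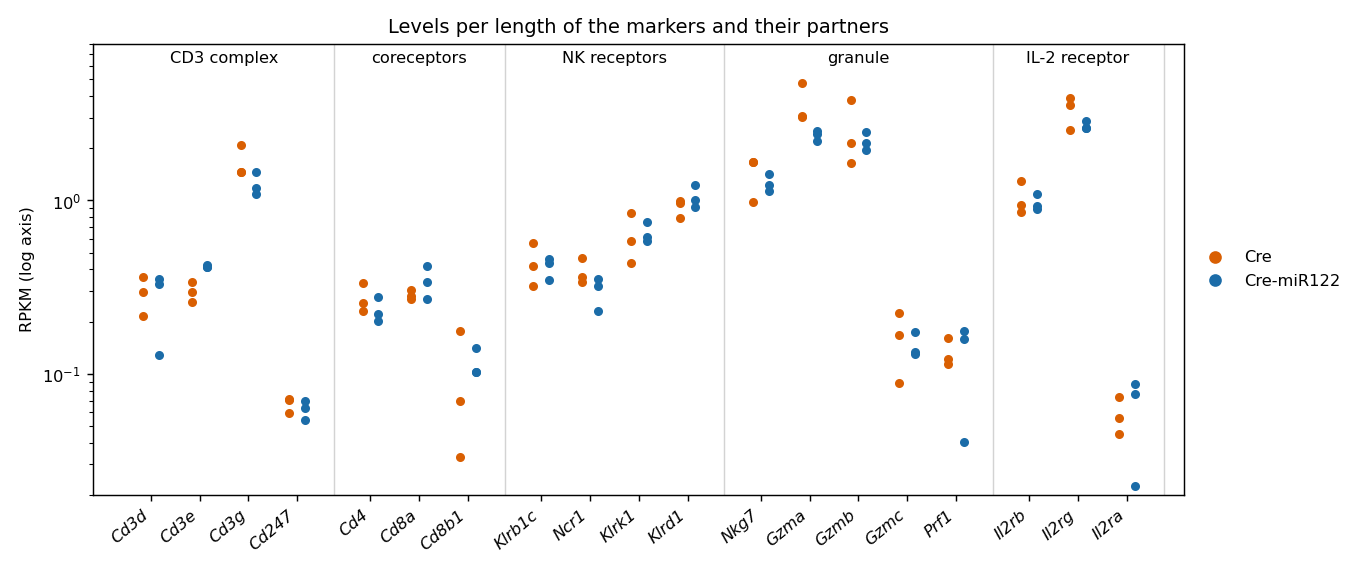
RPKM on a log axis of the T and NK markers and of partner genes, with a point for each library (orange Cre, blue Cre-miR122). Cd3g stands above Cd3d and Cd3e, Cd8a above Cd8b1, and Gzma and Gzmb above Gzmc and Prf1, in both groups of libraries.

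The 3 CD3 genes encode the delta, epsilon and gamma chains, which pair with each other around the T cell receptor. They lie together on mouse chromosome 9 (GRCm38): Cd3g at chr9:44969572-44980431 on the minus strand with 7 exons, Cd3d at chr9:44981769-44987052 on the plus strand with 6, and Cd3e at chr9:44998735-45009664 on the minus strand with 8. Cd3g and Cd3d point away from each other, and their starts in the RefSeq promoter entries lie 1355 bases apart, the Cd3d start there lying inside the first exon of the count table. No other gene of the count table shares an exonic base with any of the 10 markers, and Cdc20b, which spans Gzma on the other strand, shares 0. The 250 bases before the starts of Cd3g and Cd3d are shown because these neighbours differed in level, and those of Gzma and Gzmb because these were the most abundant markers per length. They are RefSeq sequences (GRCm38.p6), 5′ to 3′ on each gene's strand. RefSeq promoter entries matched 8 of the 10 markers.
Cd3g, chr9:44980432-44980681, minus strand: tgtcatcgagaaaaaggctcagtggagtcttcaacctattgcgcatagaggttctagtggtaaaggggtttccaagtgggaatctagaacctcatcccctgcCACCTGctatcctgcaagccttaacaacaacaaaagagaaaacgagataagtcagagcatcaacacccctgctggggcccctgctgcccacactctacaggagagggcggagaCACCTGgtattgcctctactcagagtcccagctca
Cd3d, chr9:44981536-44981785, plus strand: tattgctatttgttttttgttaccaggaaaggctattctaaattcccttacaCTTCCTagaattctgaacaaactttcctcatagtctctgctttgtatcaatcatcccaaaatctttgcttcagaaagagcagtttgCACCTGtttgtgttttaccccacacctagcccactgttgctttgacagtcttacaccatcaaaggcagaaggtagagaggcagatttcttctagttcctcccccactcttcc
Gzma, chr13:113100982-113101231, minus strand: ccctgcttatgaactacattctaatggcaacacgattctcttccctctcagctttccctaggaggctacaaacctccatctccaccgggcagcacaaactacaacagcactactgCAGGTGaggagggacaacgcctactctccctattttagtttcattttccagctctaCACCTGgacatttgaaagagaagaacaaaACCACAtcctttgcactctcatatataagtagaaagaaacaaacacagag
Gzmb, chr14:56262335-56262584, minus strand: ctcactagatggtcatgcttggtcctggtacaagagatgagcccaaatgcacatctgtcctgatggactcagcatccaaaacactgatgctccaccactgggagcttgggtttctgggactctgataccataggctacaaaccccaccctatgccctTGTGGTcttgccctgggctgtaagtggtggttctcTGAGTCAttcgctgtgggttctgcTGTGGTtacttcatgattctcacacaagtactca

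Capitals mark matches, on either strand, to an ETS core (AGGAAG), an E-box (CACCTG), a RUNX core (TGTGGT) or an AP-1 site (TGANTCA), motifs of factor families known from lymphocytes. A cAMP response element (TGACGTCA) and a TATA box (TATAAA) were also searched. These motifs were picked after the sequences had been seen, and a match is a description of the letters only. The last 17 bases of the Cd3d window lie inside the first exon of Cd3d in the count table. The Gzmb window stops at chr14:56262335 and does not reach the start of Gzmb in the count table, at chr14:56262260. Cd3g held 2 E-box matches, and Cd3d held 1 E-box and 1 ETS match. Of 32851 windows of this length before RefSeq starts, 17.2% held the E-box and 29.5% the ETS core. Gzma held 2 E-box matches and 1 RUNX match, and Gzmb held 2 RUNX matches and 1 AP-1 match. The RUNX core stood in 14.0% of all windows and the AP-1 site in 6.75%. None of the 4 windows held the exact letters TGACGTCA, present in 1.55% of all windows, or TATAAA, present in 12.4%. Variants of these letters were not searched, so the TATATAAG near the end of the Gzma window was not counted.

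None of the CD3 chains was called different between the vectors. Cd3g had 30, 46 and 30 counts with Cre against 30, 25 and 23 with Cre-miR122. Its highest library was Cre replicate 11, and the groups overlapped at 1.48 CPM in Cre replicate 10 and 1.49 CPM in Cre-miR122 replicate 1. With upper-quartile scaling in place of TMM they no longer overlapped. The log2 fold change, always Cre-miR122 minus Cre, was -0.43 (SE 0.24, 95% interval -0.98 to 0.12, edgeR adjusted p = 0.816), and -0.23 with Cre replicate 11 left out. Cd3e had 8, 11 and 9 counts with Cre against 13, 13 and 13 with Cre-miR122. Every Cre-miR122 library was above every Cre library, at 0.635 ± 0.0112 against 0.453 ± 0.0582 CPM (SD, n = 3 each), and a count of 13 has an interval of 6.92 to 22.2 counts, which holds all the Cre values. The log2 fold change was 0.48 (SE 0.30, interval -0.19 to 1.14, edgeR adjusted p = 0.819). The SE was 0.36 without a filter on low counts and 0.55 with DESeq2, so this interval may be too narrow. Cd3d had 9, 7 and 11 counts with Cre against 10, 4 and 11 with Cre-miR122. Its log2 fold change of -0.11 (SE 0.44, interval -1.09 to 0.87) is the widest of the 10.

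Cd3g stood above its partner chains in each of the 6 libraries. Per length the ratio of Cd3g to Cd3e was 5.56, 6.21 and 4.95 with Cre against 3.42, 2.85 and 2.63 with Cre-miR122. The groups did not overlap, with means of 5.57 ± 0.630 and 2.97 ± 0.412 (SD, n = 3 each). This ratio rests on 8 to 13 counts of Cd3e in each library. An exact two-sided permutation test gave p = 0.1, the smallest that 3 libraries against 3 allow, and 0.6 after Benjamini-Hochberg adjustment over the 9 ratios computed. The ratio of Cd3g to Cd3d ran from 3.09 to 9.71 and overlapped between the groups. Cd247, the zeta chain that carries most of the signalling motifs of the complex, was lower still per length, at 0.0648 RPKM with 7 to 9 counts per library.

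Of the coreceptors, Cd4 marks helper T cells and is also found on some myeloid and dendritic cells, and Cd8a marks killer T cells and a subset of dendritic cells. Cd4 (chr6:124864693-124888248, minus strand) had 18, 25 and 16 counts with Cre against 14, 16 and 20 with Cre-miR122. The groups overlapped, and the log2 fold change was -0.23 (SE 0.28, interval -0.85 to 0.39, edgeR adjusted p = 0.874). With each library left out in turn, Cd4 lay between -0.37 (Cre-miR122 replicate 4 out) and -0.056 (Cre replicate 11 out). Cd8a (chr6:71373427-71379171, plus strand) had 17, 19 and 19 counts with Cre against 17, 27 and 22 with Cre-miR122. It was highest in Cre-miR122 replicate 2 and lowest in Cre replicate 10, with a log2 fold change of 0.27 (SE 0.26, interval -0.32 to 0.85, edgeR adjusted p = 0.842). Its values with a library left out lay between 0.10 (Cre-miR122 replicate 2) and 0.41 (Cre-miR122 replicate 1). Cd8b1, the partner chain that conventional killer T cells carry, had 1 to 5 counts per library and was too low to be tested. Per length Cd8a stood 1.72 to 8.60 times above Cd8b1. The ratio of Cd8a to Cd4 was 1.07 ± 0.238 with Cre against 1.48 ± 0.345 with Cre-miR122 (exact permutation p = 0.2, adjusted p = 0.6 over the 9 ratios), and the groups overlapped.

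The granule genes held the marker with the smallest p. Gzma (chr13:113093827-113100981, minus strand), a tryptase of cytotoxic granules, had 54, 90 and 54 counts with Cre against 39, 44 and 46 with Cre-miR122. All 3 Cre libraries lay above all 3 Cre-miR122 libraries, at 3.19 ± 0.870 against 2.10 ± 0.143 CPM (SD, n = 3 each). The log2 fold change was -0.61 (SE 0.22, interval -1.10 to -0.11), a level 1.52-fold lower with Cre-miR122. The edgeR unadjusted p of 0.0225 ranked 325 among all tested genes, and the adjusted p was 0.816. Without Cre replicate 11, the highest library, the log2 fold change was -0.36.

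Gzmb (chr14:56258856-56262260, minus strand), the granzyme that cleaves after aspartate and triggers caspases, had 47, 115 and 61 counts with Cre against 71, 63 and 57 with Cre-miR122. Cre replicate 11 stood highest at 5.36 CPM (interval 4.42 to 6.43 CPM), followed by Cre-miR122 replicate 1 at 3.54 CPM (2.76 to 4.46 CPM), so their counting intervals just met. The Cre-miR122 values lay between those of Cre replicates 10 and 11. The log2 fold change was -0.21 (SE 0.29, interval -0.85 to 0.44, edgeR adjusted p = 0.891) and turned to 0.21 without Cre replicate 11. Per length Gzmb to Gzma was 0.677 ± 0.128 with Cre against 0.927 ± 0.183 with Cre-miR122 (exact permutation p = 0.2, adjusted p = 0.6 over the 9 ratios).

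Nkg7 (chr7:43437138-43438246, plus strand), a membrane protein of cytotoxic granules, had 16, 29 and 27 counts with Cre against 20, 19 and 24 with Cre-miR122. The groups overlapped, with Cre replicate 10 lowest, and the log2 fold change was -0.18 (SE 0.28, interval -0.81 to 0.44, edgeR adjusted p = 0.901). For Nkg7 the leave-out values lay between -0.39 (Cre replicate 10) and -0.062 (Cre replicate 11). The transcript of perforin, the pore-forming protein that granzymes need to enter target cells, was far less abundant than Gzma and Gzmb. This gene, Prf1, had 2 to 9 counts per library, and Gzmb per length stood 10.2 to 61.4 times above it. Of the other granzyme genes, Gzmc had 2 to 5 counts per library and Gzmm 1 to 6. Gzmd, Gzme, Gzmf, Gzmg and Gzmk had a count of 0 in every library, which allows up to 3 counts, or 0.140 to 0.150 CPM, in each. Granzyme genes are near-identical in part, and how multiply mapping reads were handled is unknown here, which makes these counts uncertain.

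Klrb1c (chr6:128778485-128788641, minus strand) encodes the activating receptor NK1.1, which marks NK cells, type 1 innate lymphoid cells and NKT cells in strains that carry it. It had 17, 32 and 22 counts with Cre against 23, 19 and 25 with Cre-miR122. The groups overlapped over most of their range, at 1.14 ± 0.327 and 1.09 ± 0.153 CPM (SD, n = 3 each). The log2 fold change was -0.073 (SE 0.28, interval -0.70 to 0.55, edgeR adjusted p = 0.961) and lay above 0 when Cre replicate 11 (0.17) or Cre-miR122 replicate 2 (0.036) was left out. Klrb1b, its inhibitory relative, had 8 to 14 counts per library, and Ncr1, which encodes the NK receptor NKp46, had 7 to 14. Klrb1 genes are close copies of each other and share the uncertainty given for granzymes.

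Il2rb (chr15:78479256-78511621, minus strand) encodes the beta chain shared by the receptors for interleukins 2 and 15, which NK cells and memory T cells carry at high levels. It had the most counts of the 10 markers, 79, 92 and 118 with Cre against 82, 88 and 103 with Cre-miR122. Cre replicate 12 was highest and the groups overlapped. The log2 fold change was -0.080 (SE 0.19, edgeR adjusted p = 0.940). Its interval, -0.50 to 0.34, is the narrowest of the 10 and runs from a level 1.41-fold lower to one 1.26-fold higher with Cre-miR122. Without Cre replicate 12 the log2 fold change was 0.12.

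**Figure D2:**
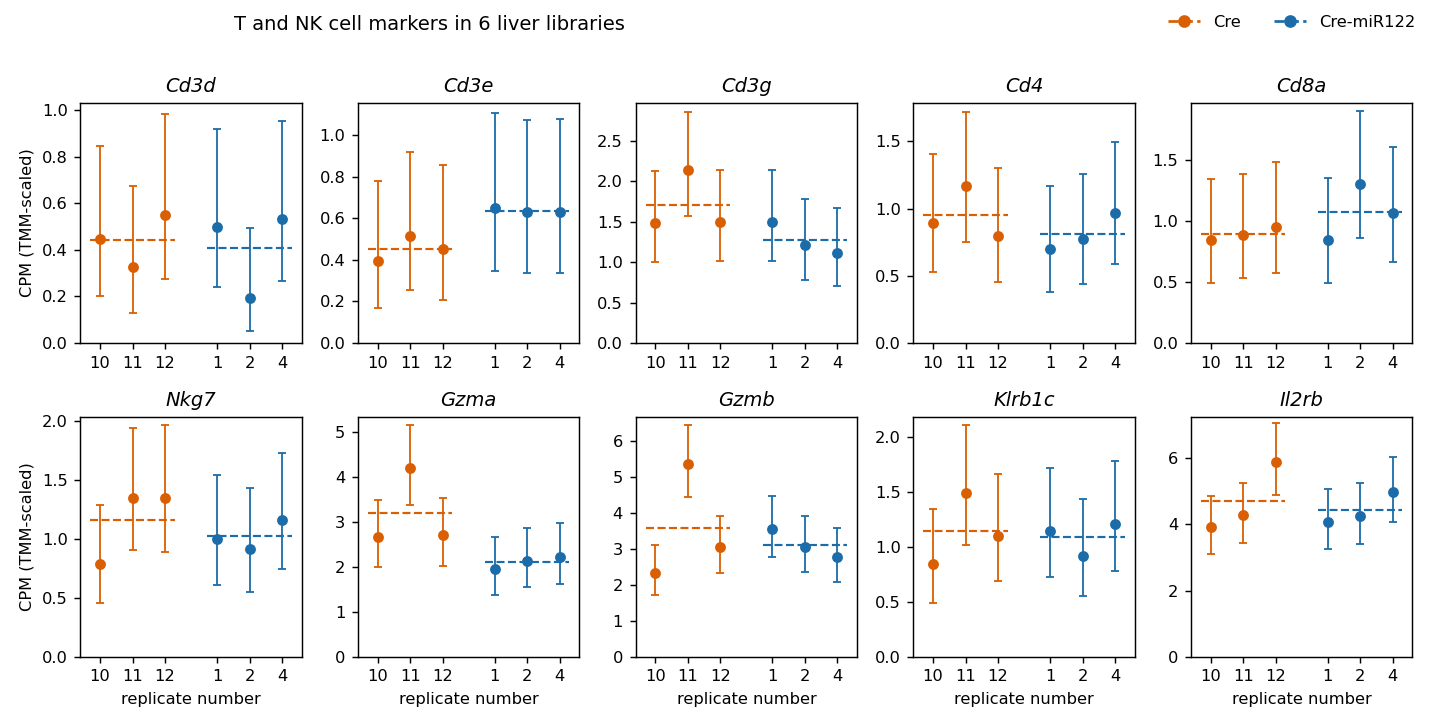
CPM of the 10 markers in each library, with exact 95% Poisson intervals as bars and group means as dashed lines (orange Cre, blue Cre-miR122, replicate numbers on the x axis). Gzma is higher in all Cre libraries than in any Cre-miR122 library, Cd3e is lower, and Cre replicate 11 stands out for Gzma and Gzmb.

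Across the 10 markers, 0 were called at an adjusted p under 0.05, where edgeR called 0% of all tested genes (DESeq2 called 3 genes and limma-voom 0, none of them a marker). At an unadjusted p under 0.05 there was 1 marker, Gzma, against 5.41% of all genes. The groups did not overlap, with lower values in Cre-miR122, for 1 marker (Gzma) against 5.44% of all genes, and with higher values for 1 (Cd3e) against 5.7%. A log2 fold change below 0 was found for 8 of the 10 markers and for 50.6% of all genes. It was found for 6 of the 10 when Cre replicate 11, Cre replicate 12 or Cre-miR122 replicate 2 was left out. The median of the 10 was -0.14, beside -0.0029 over all tested genes, and lay at -0.059 without Cre replicate 11 and at -0.26 without Cre replicate 10.

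**Figure D3:**
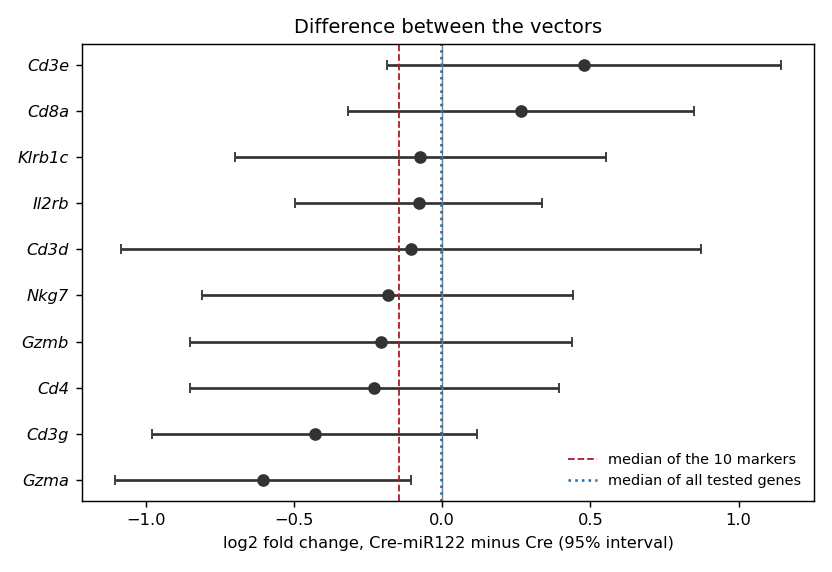
Log2 fold changes of the 10 markers (Cre-miR122 minus Cre) with 95% intervals of the edgeR fit, not adjusted for the number of genes. The dashed red line is the median of the markers (-0.14) and the dotted blue line that of all tested genes. The interval of Gzma alone lies apart from 0.

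Libraries of the same group differed in the markers. Cre replicate 11 was the highest library for 6 of the 10 (Cd3g, Cd4, Nkg7, Gzma, Gzmb and Klrb1c), where it was highest for 24.3% of all tested genes. Cre replicate 10, which also stood apart in sex-linked genes, was lowest for 6 (Cd3e, Cd8a, Nkg7, Gzmb, Klrb1c and Il2rb). The share of all tested genes lowest in that library is not given here, so this count has no background to be read against. On the log2 scale the mean deviation of the markers from the 6-library mean was -0.18 in Cre replicate 10, 0.26 in replicate 11 and 0.079 in replicate 12. It was -0.035, -0.17 and 0.046 in Cre-miR122 replicates 1, 2 and 4, within the span of the Cre group. Cre replicate 11 was also highest in the summed CPM of the lists for B cells, dendritic cells, neutrophils and monocytes, Kupffer cells and all leukocytes. The part of these cells, or of sex, in the marker values was not tested.

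Beside Ptprc, which encodes CD45 and is found on all leukocytes, the summed markers stood at nearly the same level in both groups. Il2rb, Gzmb and Gzma weigh most in the sum, at means of 4.57, 3.34 and 2.64 CPM over all libraries. The sum does not describe each marker. Ptprc had 340, 451 and 342 counts with Cre against 297, 396 and 337 with Cre-miR122. The summed CPM of the 10 markers divided by Ptprc CPM was 0.868, 1.03 and 1.07 with Cre against 1.07, 0.803 and 1.02 with Cre-miR122. The group means were 0.991 ± 0.109 and 0.966 ± 0.144 (SD, n = 3 each), a difference of -0.043 on the log2 scale that is smaller than the spread within either group. With each library left out in turn it ran from -0.14 (Cre replicate 10) to 0.085 (Cre-miR122 replicate 2), with -0.12 for Cre-miR122 replicate 1, -0.088 for replicate 4, -0.0097 for Cre replicate 11 and 0.018 for replicate 12. With the pan-leukocyte list in place of Ptprc it was 0.012.

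The wider lists of T and NK cell genes held no called gene either. Some of their genes lay far above the markers, with means over the 6 libraries of 398 CPM for Lamp1 (granule list), 107 for Stat5b (interleukin 2 and 15 axis) and 35.4 for Plcg1 (T cell receptor signalling). Such genes may come largely from other liver cells, so the medians of these lists do not describe T and NK cells alone. Among 15 tested genes of T cell receptor signalling, 11 lay below 0 on the log2 scale. Their median was -0.12, and -0.017 without Cre replicate 11. Among them the adaptor gene Grap2 was at -0.76 (SE 0.24) and the kinase gene Zap70 at 0.32 (SE 0.25). Of 12 tested genes of T cell identity, 9 lay below 0, with a median of -0.26. They included the costimulatory receptor Cd27 at -0.63 (SE 0.33) and the surface glycoprotein Thy1 at -0.44 (SE 0.28). Trac, Trbc1, Trbc2 and Trdc, the constant chains of the T cell receptor, had no row of that name in the count table. They could therefore not be analysed.

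Of 14 tested genes of NK cells and type 1 innate lymphoid cells, 5 lay below 0 and 9 above, with a median of 0.026, which turned to -0.10 without Cre replicate 10. They included Cd160 at -0.47 (SE 0.29), Tyrobp, an adaptor that myeloid cells also carry, at -0.25 (SE 0.15), and Itga1, an integrin also found on other liver cells, at 0.19 (SE 0.11). Of 10 tested granule and effector genes, 7 lay below 0, with a median of -0.078. That median was -0.16 when Cre replicate 12 was left out and -0.14 when Cre-miR122 replicate 1 was. The vesicle protein gene Rab27a was at 0.36 (SE 0.13), the chemokine gene Ccl5 at -0.41 (SE 0.21) and the syntaxin gene Stx11 at -0.48 (SE 0.29). Of 10 tested genes of the interleukin 2 and 15 axis, 7 lay below 0, with a median of -0.089, and it was -0.20 without Cre replicate 10 and -0.0013 without Cre replicate 12. Bcl2, a survival factor, was at -0.43 (SE 0.20), the common gamma chain Il2rg at -0.31 (SE 0.18) and Il15ra at -0.15 (SE 0.13). None of the genes in these lists was called, the smallest edgeR adjusted p being 0.816.

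Other leukocyte lists are given for comparison, and their part in the markers was not tested. All 8 B cell genes lay below 0, with a median of -0.65, and their summed level was 27.8 to 36.5 CPM with Cre against 16.7 to 22.7 CPM with Cre-miR122. All 9 tested neutrophil and monocyte genes lay below 0 with a median of -0.47 (20.3 to 24.7 and 16.0 to 17.4 CPM), and all 10 pan-leukocyte genes with a median of -0.21 (158 to 179 and 127 to 164 CPM). Dendritic cell genes, with 8 tested and all below 0, had a median of -0.20 (55.9 to 88.4 and 44.0 to 53.8 CPM). The 10 Kupffer cell genes had one of -0.19 (568 to 695 and 472 to 608 CPM), with 9 below 0 and 1 above, Adgre1 at 0.26 (SE 0.18). Leaving out Cre replicate 10 gave a dendritic cell median of -0.36, leaving out replicate 11 gave -0.070, and the Kupffer cell median was -0.095 when Cre-miR122 replicate 1 was left out. None of these genes was called, and no defining marker of these lists was at 0 in all libraries.

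**Figure D4:**
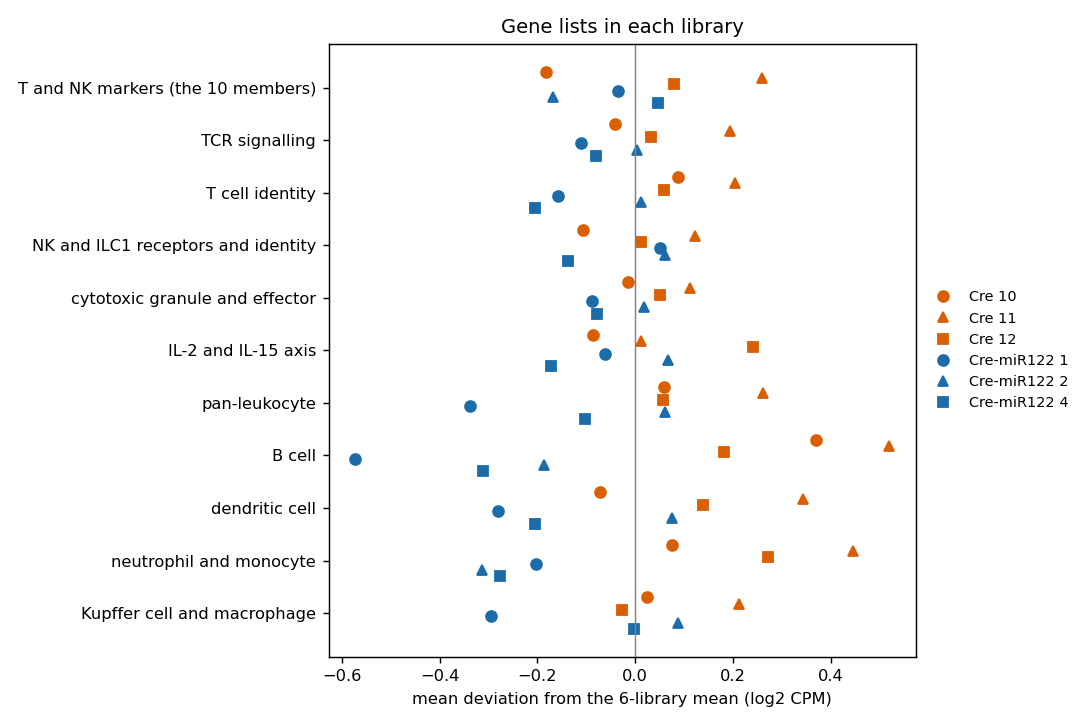
Mean deviation of the tested genes of each list from their 6-library mean, in log2 CPM, with a point for each library (orange Cre, blue Cre-miR122, shapes for replicates). The vectors overlap for the 10 T and NK markers, where Cre replicate 11 lies highest and Cre replicate 10 lowest, and do not overlap for T cell identity, B cell, and neutrophil and monocyte genes.

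Genes with a pattern most like 2 of the markers were found by the root mean square difference of centred log2 CPM over the 6 libraries, among 14373 tested genes. Nearest to Cd3e were Piezo2 (0.037), Dnaja4 (0.087), Paox (0.098), Cep78 (0.11) and LOC108167746 (0.12), where the median gene lay at 0.30. Nearest to Klrb1c were LOC100861749 (0.061), Tmem39b (0.083), 1500004A13Rik (0.088), Thbs1 (0.091) and Zfp641 (0.096), with the same median of 0.30. None of the other markers was among these 10 genes. With 8 to 13 counts per library for Cd3e and 17 to 32 for Klrb1c, counting error enters these distances. The nearest genes therefore cannot show whether the markers vary together.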

How the data were processed

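Bulk liver messenger RNA was measured in 6 libraries, grouped by sample title. The authors deposited raw whole-number counts per gene with summed exon lengths. The submitters' processing notes list STAR (version 2.7.9a), featureCounts (version 2.0.1) and the build GRCm38 (mm10). Strand and multimapping settings and the annotation are not stated there. Another 5 columns of per-sample values matched no sample and were not used.

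From these counts, edgeR 4.0.16 in R 4.3.3 was run over all genes: filterByExpr, TMM scaling, the quasi-likelihood F test with group alone, two-sided, with Benjamini-Hochberg adjustment over 14374 genes and a threshold of 0.05. Standard errors came from the F statistic, and intervals used the fit's t quantiles. Log2 CPM used a prior count of 0.5. DESeq2 1.42.0 and limma 3.58.1 (voom), other scalings, filters and dispersions, and leaving out each library were the alternatives. The tools were tested on simulated data.

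All 10 markers were named; from each other T and NK list the 3 genes with the smallest p were named, from the other lists reference genes fixed with that rule. Some genes that this rule names are not reported here. The 5 genes nearest in pattern to Cd3e and to Klrb1c were named. Partner genes of the markers outside this rule (among them Cd247, Cd8b1, Klrb1b and other granzymes) were chosen after their values were seen. So were Lamp1, Stat5b and Plcg1, named for their high levels. Markers and lists were chosen with earlier results of these data known. Sequences came from RefSeq (GRCm38.p6).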

Additional observations from a re-analysis of the deposited data

How the results depend on the processing

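Over all tested genes 0 were called, and the count was 2 without a filter on low counts and 3 with DESeq2, neither of which called a T or NK marker. The count of markers called was 0 under every alternative run. Their median log2 fold change stayed below 0, between -0.20 and -0.14 under other scalings, filters and tools and between -0.26 and -0.059 when a library was left out. Signs of single markers turned only when a library was left out. Gzmb was at 0.21 and Klrb1c at 0.17 without Cre replicate 11, Il2rb at 0.12 and Cd3d at 0.082 without Cre replicate 12, and Klrb1c at 0.036 and Cd3d at 0.23 without Cre-miR122 replicate 2. The cause was not tested. With Gzmb at -0.44 and Klrb1c at -0.25 without Cre replicate 10, their leave-out ranges span 0. For Il2rb and Cd3d the lowest values were -0.19 and -0.34. The difference in the log2 ratio of Cd3g to Cd3e, -0.91, lay between -1.02 and -0.83 with each library left out, an alternative chosen after seeing the data, as were leaving out libraries for the other lists and the count of markers below 0. Requiring a CPM of at least 1 in 3 libraries left 6 of the 10 markers, all below 0. No paired analysis was possible because the groups share no replicate numbers. Markers had 4 to 118 counts per library. Counting error and the spread between 3 libraries a group both bear on the fold changes, and their shares were not tested. The printed intervals of log2 fold changes may not hold all of the counting error where libraries differ little. DESeq2 gave a larger SE than edgeR for every marker, for Cd3e 0.55 against 0.30.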

Other observations

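Foxp3, which encodes the transcription factor of regulatory T cells, was too low to pass the filter and is given here because its values stood out once seen. It had 4, 4 and 7 counts with Cre and 0, 0 and 1 with Cre-miR122, so 1 of 16 counts came from the Cre-miR122 libraries (6.25%, exact 95% binomial interval 0.158% to 30.2%), which held 49.9% of the scaled depth. In an edgeR fit without a filter its p was 0.00309, and the adjusted p was 0.675 over 23347 genes. For other genes that regulatory T cells carry, counts in the groups were nearer to each other, and the difference from Foxp3 was not tested. Ctla4, an inhibitory receptor, had 7 counts with Cre and 6 with Cre-miR122, and Il2ra, the high-affinity interleukin 2 receptor chain, had 16 and 17. Icos, a costimulatory receptor, had 126 and 111. The interval covers counting error only.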
